A study of Mus musculus with 7 samples.

Results

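The transcripts described here encode 9 secreted proteins of the pericellular and interterritorial matrix: the thrombospondins Thbs1, Thbs2, Thbs3 and Thbs4, tenascin C (Tnc), periostin (Postn), SPARC (Sparc), fibronectin (Fn1) and TGFβ-induced protein (Tgfbi). They were taken by gene name from a count file of 52459 gene names, and all 9 were found and had enough counts to be tested. The file holds bulk RNA sequencing of mouse articular chondrocytes, the cells of joint cartilage, which were released from the femoral head by digestion and cultured in high-glucose DMEM with fetal bovine serum. Every group received that medium; vehicle alone was given to 2 libraries (replicates 1 and 2), TGFβ1 at 5 ng/ml to 2 libraries (replicates 1 and 3) and BMP2 at 100 ng/ml to 3 libraries (replicates 1 to 3), each for 24 h. The labels give no mouse strain, age or sex, and do not say whether replicates were separate animals or cultures, so the p-values below measure the spread between these libraries, which may be technical.

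Most of these proteins are called matricellular: they sit in the matrix and bind cells, collagens and growth factors, and are known less for bearing load than for tuning adhesion and signalling. Thrombospondins 1 and 2 are trimers that bind the receptors CD36 and CD47, and thrombospondin 1 can release active TGFβ from its latent complex. Thrombospondins 3 and 4 are pentamers, like cartilage oligomeric matrix protein (COMP). Tenascin C weakens cell adhesion to fibronectin, periostin and TGFβ-induced protein share fasciclin domains and bind integrins, SPARC binds collagen and calcium, and fibronectin is the scaffold on which cells assemble other matrix proteins. TGFβ1 signals mainly through SMAD2 and SMAD3 and BMP2 through SMAD1, SMAD5 and SMAD8, and both ligands act on chondrocyte differentiation.

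The TGFβ1 libraries differed from the others in composition. Total counts were 6747997 to 10686885 in the vehicle and BMP2 libraries and 16271793 to 18047765 in the TGFβ1 libraries, and ribosomal protein genes took 0.995% to 1.33% of counts in the former and 6.08% to 6.11% in the latter. In TGFβ1 against vehicle the median log2 fold change was 2.86 over genes whose principal transcript had 750 nt or fewer, and -0.57 over genes above 7000 nt. In BMP2 against vehicle the medians of all length ranges lay between -0.08 and 0.08. For this reason the members' TGFβ1 results and the counts of the gene lists are also given with a length offset, which removes from every library its smooth trend of counts with transcript length and GC content. Which of the 2 sets of values is nearer to the cells' RNA was not tested. Both TGFβ1 libraries, and no others, had the higher depth and ribosomal share. In every comparison with TGFβ1 these differences between libraries therefore coincide with the treatment and cannot be told apart from it. The summed level of 9 chondrocyte markers was 54900 CPM (counts scaled to library size, with TMM factors) in both vehicle libraries, 34500 to 40400 CPM with TGFβ1 and 47400 to 53500 CPM with BMP2. All 9 had counts in every group, and 7 of them fell with TGFβ1, or 8 with the length offset. Of all tested genes 25.8% were called lower with TGFβ1, or 23.9% with the offset. Of the known ligand targets, Pmepa1, a brake on TGFβ signalling, averaged 22.5 CPM ± 0.100 (SD, n = 2) in vehicle, 737 CPM ± 47.6 (n = 2) with TGFβ1 and 80.6 CPM ± 2.85 (n = 3) with BMP2. The inhibitory Smad7 averaged 15.9 CPM ± 1.16, 25.9 CPM ± 0.574 and 79.5 CPM ± 7.51 in the same order. Pmepa1, Smad7 and Skil passed the test with both ligands, though the BMP2 call of Skil (log2 0.53) was lost without either vehicle library or BMP2 replicate 2 or 3 (0.47 to 0.55). Id1 and Id3, usual BMP targets, had log2 fold changes of 1.10 and 1.01 with BMP2 and did not pass (adjusted p = 0.107 and 0.0651, edgeR). They passed with the length offset (1.17 and 1.04, adjusted p = 0.0231 and 0.01). Id1 stood at 76.9 and 74.4 CPM in vehicle and at 146.8, 167.6 and 171.2 CPM with BMP2, and in TGFβ1 replicate 1 Id1 stood at 246 CPM against 68.3 CPM in replicate 3. Id3 stood at 695 and 263 CPM in these TGFβ1 replicates. The fit takes each gene's spread from all 7 libraries, so the scatter of the TGFβ1 pair enters the BMP2 tests of Id1 and Id3 as well.

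Promoter windows were read from RefSeq's table (build GRCm38.p6, 250 bases before to 50 after a start site), which held 9 windows for 7 of the 9 genes. Thbs1 and Fn1 are named only. The 250 bases before the start site are printed for Thbs2, Sparc and Tgfbi, the genes with a window that differed most between BMP2 and TGFβ1, 5′ to 3′ on the gene's own strand. Capitals mark the letters CAGAC, the core to which SMAD3 and SMAD4 bind, and GGCGCC, a motif bound by SMAD1 and SMAD5, each searched on both strands, so that CAGAC on the other strand appears as GTCTG.
Thbs2, chr17:14694263-14694512, minus strand: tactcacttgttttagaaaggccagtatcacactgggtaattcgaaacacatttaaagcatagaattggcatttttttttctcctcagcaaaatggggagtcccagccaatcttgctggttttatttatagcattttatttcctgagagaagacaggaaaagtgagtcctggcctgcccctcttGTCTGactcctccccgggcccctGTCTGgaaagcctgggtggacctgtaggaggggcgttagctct
Sparc, chr11:55420081-55420330, minus strand: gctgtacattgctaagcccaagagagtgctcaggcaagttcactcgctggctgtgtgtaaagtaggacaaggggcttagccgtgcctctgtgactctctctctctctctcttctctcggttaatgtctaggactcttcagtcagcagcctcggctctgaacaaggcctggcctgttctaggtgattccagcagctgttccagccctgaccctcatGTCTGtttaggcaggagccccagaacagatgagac
Tgfbi, chr13:56609336-56609585, plus strand: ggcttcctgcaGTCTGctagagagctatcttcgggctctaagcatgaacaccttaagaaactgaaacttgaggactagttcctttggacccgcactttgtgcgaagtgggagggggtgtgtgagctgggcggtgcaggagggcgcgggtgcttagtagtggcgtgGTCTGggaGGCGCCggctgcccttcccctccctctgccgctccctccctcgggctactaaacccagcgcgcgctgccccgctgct
In the Thbs2 window CAGAC began 66 and 43 bases before the start site, and in the Tgfbi window 239 and 85 bases before it, with GGCGCC 77 bases before. The Sparc window held CAGAC 35 bases before the start site and at base 16 after it, which is not printed. Over all 32841 windows of 300 bases in the table, 49.6% held CAGAC and 11.9% held GGCGCC, so a match is common. Among the other members the windows of Thbs4 and Tnc and 1 of the 2 of Postn held CAGAC, and that of Thbs3 held neither motif. None of the 9 windows held TGANTCA, the AP-1 motif, which 7.81% of all windows held. These are letter matches, and no binding was measured.

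Levels of different genes were compared per kilobase of the gene length that the authors deposited. In vehicle the order was Sparc (2512 CPM per kb), Fn1 (833), Thbs1 (518), Tgfbi (37.0), Thbs2 (11.9), Tnc (6.20), Thbs4 (3.29), Thbs3 (2.64) and Postn (0.506). Sparc, Fn1 and Thbs1 therefore made up nearly all of the transcript of these genes. Thbs4 stood above Thbs3 in both vehicle libraries (3.01 and 3.56 against 2.36 and 2.93 CPM per kb, replicates 1 and 2). Their means were 3.29 ± 0.393 and 2.64 ± 0.403 (SD, n = 2). With the principal transcript's length these genes changed places (3.38 for Thbs4 and 3.99 for Thbs3), so their order rests on the length used. Sparc, Fn1, Thbs1 and Tgfbi kept the first 4 places in every group. Thbs2 moved from 35.2 CPM per kb with TGFβ1, next below Tgfbi, to 4.96 with BMP2, where Tnc (8.57) and Thbs3 (5.53) stood above it. With BMP2, Thbs3 stood above Thbs2 in each library (5.62, 5.44 and 5.54 against 4.26, 5.37 and 5.24 CPM per kb). The means were 5.53 ± 0.0889 and 4.96 ± 0.609 (n = 3), or 8.37 ± 0.134 and 4.98 ± 0.612 with the principal transcript's length. With TGFβ1, Thbs4 at 4.10 ± 0.736 and Tnc at 4.01 ± 0.460 (n = 2) did not differ beyond their spread. Postn was lowest in each group on the deposited length.

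With TGFβ1, 4 of the 9 genes rose (Thbs2, Postn, Sparc and Fn1), 2 fell (Thbs1 and Tnc) and 3 did not pass the test, by edgeR's quasi-likelihood test with Benjamini-Hochberg adjustment over 13367 genes and a threshold of 0.05. Of all tested genes 56.2% were called in this comparison, 30.4% higher and 25.8% lower, so the members' 66.7% lies near the background. The median log2 fold change was 0.31 for the members and -0.02 for all tested genes. With BMP2, 3 rose (Tgfbi, Thbs3 and Tnc), 3 fell (Thbs1, Thbs2 and Fn1) and 3 did not pass, where 11.5% of all tested genes were called (5.33% higher and 6.15% lower). The members' median here was -0.02, against 0 for all genes. All 9 differed between BMP2 and TGFβ1, 3 higher and 6 lower with BMP2, in a comparison that called 61.4% of all genes (28.1% higher and 33.3% lower). With the length offset the members' calls were 4 higher and 1 lower for TGFβ1, 3 and 2 for BMP2, and 3 and 6 between the ligands. The offset fit called 49.2% (25.3% higher and 23.9% lower), 13.2% (6.83% and 6.4%) and 55.5% (27.3% and 28.2%) of all genes in these comparisons. The CPM ranges of the groups did not overlap for 8, 7 and 9 members in these comparisons, against 80.1%, 44.6% and 73.7% of all tested genes. The comparisons with vehicle share its libraries, and the contrast of BMP2 with TGFβ1 tests whether the ligands' effects differ. That contrast sets libraries against each other that also differ in depth and composition. In bulk RNA fewer cells of a type and less RNA per cell cannot be told apart.

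**Figure D1:**
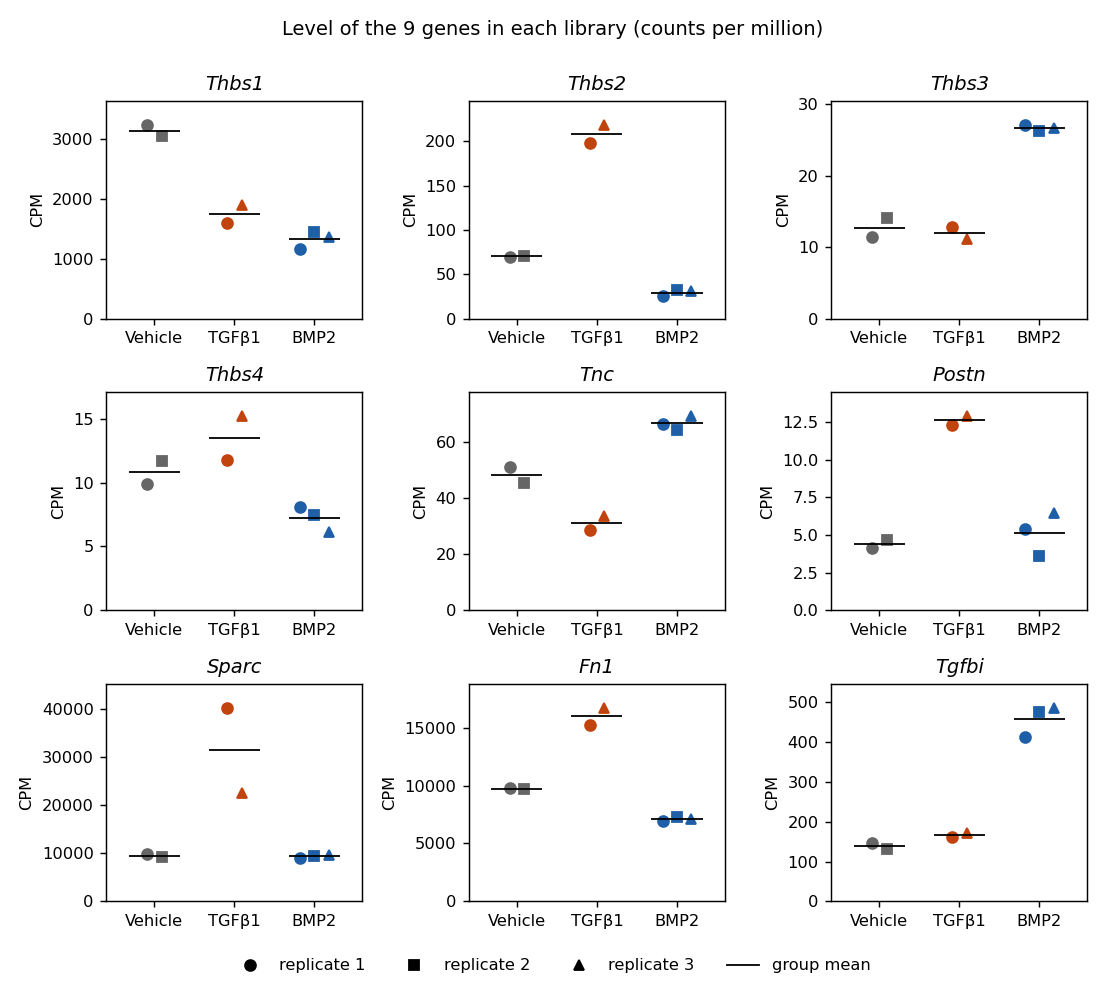
CPM of the 9 genes in each of the 7 libraries (linear axes from 0), with the replicate number as the marker and a line at the group mean. Thbs2, Postn, Sparc and Fn1 were highest with TGFβ1, Thbs3, Tnc and Tgfbi with BMP2, and Thbs1 in vehicle.

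Thbs1 (ENSMUSG00000040152.8, mm10 chr2:118111876-118127133, plus strand) was the most abundant among Thbs1, Thbs2, Thbs3 and Thbs4 and fell with both ligands. Vehicle libraries held 3241 and 3050 CPM, and it was at 1603 and 1908 CPM with TGFβ1 and at 1163, 1452 and 1374 CPM with BMP2. Every treated library lay below both vehicle libraries. The log2 fold change was -0.84 with TGFβ1 (SE 0.15, edgeR adjusted p = 0.000883), or -0.49 with the length offset (adjusted p = 0.014), and -1.24 with BMP2 (SE 0.14, adjusted p = 0.000281). BMP2 gave a lower level than TGFβ1 by -0.40 (SE 0.14, adjusted p = 0.0263); that call was lost when TGFβ1 replicate 3 (-0.28), BMP2 replicate 3 (-0.42) or vehicle replicate 1 (-0.35) was left out, with adjusted p up to 0.109. Gm29233 overlaps 3.42% of its exon bases from the other strand, and no source used here gives the strand setting of the counting.

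Thbs2 (ENSMUSG00000023885.9, chr17:14665500-14694235, minus strand) moved in opposite directions with the ligands. Its level was 69.3 and 71.2 CPM in vehicle, 198.6 and 218.5 CPM with TGFβ1, and 25.2, 31.8 and 31.0 CPM with BMP2. The 3 groups did not overlap. TGFβ1 raised it 2.97-fold (log2 1.57, SE 0.14, edgeR adjusted p = 5.42e-06), and by 1.97 on the log2 scale with the length offset. BMP2 lowered it to 0.417 of the vehicle level (log2 -1.26, SE 0.13, adjusted p = 0.000177). The BMP2 level was 7.12-fold below the TGFβ1 level (log2 -2.83, SE 0.13, adjusted p = 1.93e-08), the largest difference between the ligands among the 9 genes.

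The balance of the trimeric thrombospondins was read as the ratio of their counts within each library, where library scaling cancels. Counts of Thbs1 were 46.8 and 42.9 times those of Thbs2 in vehicle, and 46.1, 45.6 and 44.3 times with BMP2. In the TGFβ1 libraries the ratio was 8.07 and 8.73. The mean of 8.40 ± 0.467 (SD, n = 2) with TGFβ1 was 5.34-fold below the vehicle mean of 44.8 ± 2.79, while the BMP2 mean of 45.3 ± 0.952 (n = 3) lay within the vehicle range. With 2 libraries against 2 or 3, a 2-sided exact permutation test cannot go below p = 0.333 or 0.1, so the ratios are given without a test. The principal transcripts of Thbs1 and Thbs2 are of like length, 5848 and 5895 nt.

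**Figure D2:**
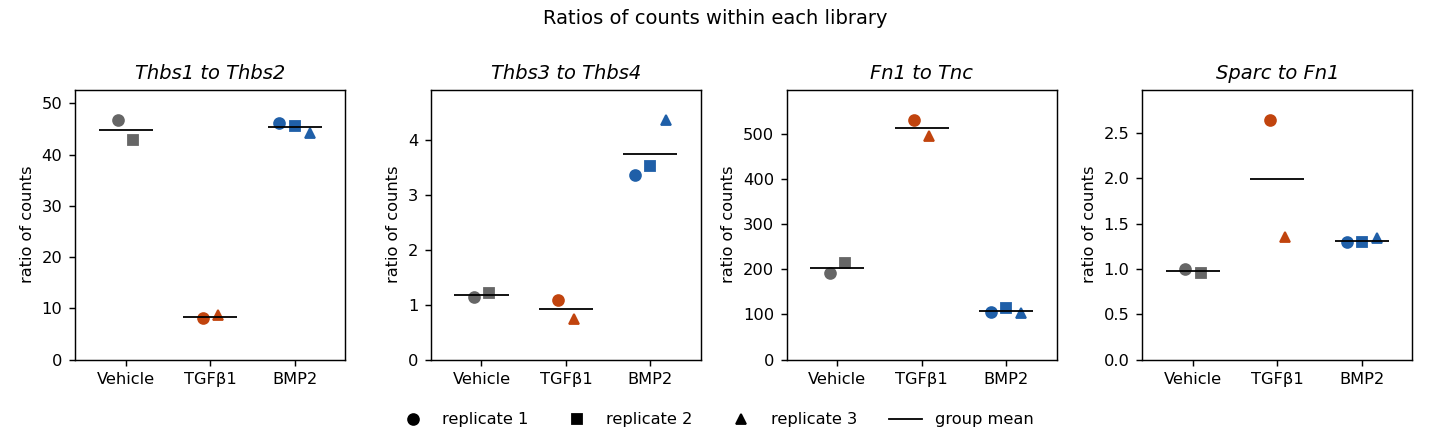
Ratio of the counts of 2 genes within each library for 4 pairs (linear axes from 0), with a line at the group mean. The Thbs1 to Thbs2 ratio is about 8 in the TGFβ1 libraries and 42.9 to 46.8 in all others, and the Thbs3 to Thbs4 ratio is highest with BMP2.

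Among the pentameric thrombospondins, Thbs3 (ENSMUSG00000028047.11, chr3:89215180-89226837, plus strand) rose with BMP2. Levels were 11.4 and 14.1 CPM in vehicle, 12.9 and 11.1 CPM with TGFβ1, and 27.1, 26.3 and 26.7 CPM with BMP2. The BMP2 libraries all lay above the others, and the TGFβ1 and vehicle ranges overlapped. The BMP2 change was 2.09-fold (log2 1.06, SE 0.14, edgeR adjusted p = 0.00107), and that with TGFβ1 was -0.09 (95% interval -0.44 to 0.26, adjusted p = 0.659), or -0.22 with the length offset (adjusted p = 0.282). BMP2 was 2.22-fold higher than TGFβ1 (SE 0.14 on the log2 scale, adjusted p = 3.89e-05). The gene shares 6.59% of its exon bases with Mtx1 on the other strand.

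Thbs4 (ENSMUSG00000021702.7, chr13:92751590-92794818, minus strand), a thrombospondin also found in tendon and muscle matrix, stood at 9.90 and 11.7 CPM in vehicle, 11.8 and 15.2 CPM with TGFβ1, and 8.06, 7.42 and 6.11 CPM with BMP2. The BMP2 libraries were the lowest, and the lower TGFβ1 library lay just above the higher vehicle library. Neither comparison with vehicle passed the test: the log2 fold change was 0.31 with TGFβ1 (95% interval -0.12 to 0.75, adjusted p = 0.196) and -0.59 with BMP2 (-1.02 to -0.16, adjusted p = 0.0815, edgeR). When only genes of at least 2000 nt were tested, both passed (0.50, adjusted p = 0.0365, and -0.58, adjusted p = 0.0485). Under the length offset they were 0.24 and -0.55 (adjusted p = 0.317 and 0.0779). The ligands differed, with BMP2 lower by -0.90 (SE 0.18, edgeR adjusted p = 0.00132). Counts of Thbs3 were 1.15 and 1.20 times those of Thbs4 in vehicle, 1.09 and 0.734 times with TGFβ1, and 3.36, 3.54 and 4.37 times with BMP2. The BMP2 mean ratio of 3.76 ± 0.539 (SD, n = 3) was 3.19 times the vehicle mean.

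Tnc (ENSMUSG00000028364.15, chr4:63959785-64047015, minus strand) was lowest with TGFβ1 and highest with BMP2. Its level was 51.2 and 45.2 CPM in vehicle, 28.6 and 33.7 CPM with TGFβ1, and 66.3, 64.4 and 69.1 CPM with BMP2, and the 3 groups did not overlap. The fall with TGFβ1 was -0.63 (SE 0.13, edgeR adjusted p = 0.00205). It is among the longest transcripts of the set (7100 nt), and with the length offset the value was -0.29 and did not pass (adjusted p = 0.0681). The rise with BMP2 was 1.38-fold (log2 0.47, SE 0.12, adjusted p = 0.0291), and it was lost when either vehicle library (log2 0.56 without replicate 1 and 0.38 without replicate 2), BMP2 replicate 2 (0.49) or BMP2 replicate 3 (0.44) was left out, with adjusted p up to 0.277. The difference between the ligands was 1.10 (SE 0.12, edgeR adjusted p = 2.06e-05), or 0.87 with the length offset (adjusted p = 3.93e-05).

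Of the fasciclin-domain pair, Tgfbi (ENSMUSG00000035493.10, chr13:56609523-56639562, plus strand) rose with BMP2 and, despite its name, did not pass the test with TGFβ1. Its level was 147.2 and 131.9 CPM in vehicle, 160.8 and 170.7 CPM with TGFβ1, and 412.5, 476.1 and 486.4 CPM with BMP2. The 3 groups were separate, and those of vehicle and TGFβ1 lay close together. BMP2 raised it 3.28-fold (log2 1.72, SE 0.13, edgeR adjusted p = 4.24e-05), the largest rise with BMP2 among the 9 genes. The value with TGFβ1 was 0.25 (95% interval -0.05 to 0.55, adjusted p = 0.144). It passed when only genes of at least 2000 nt were tested (0.44, adjusted p = 0.00578) and was 0.14 with the length offset (adjusted p = 0.439). BMP2 exceeded TGFβ1 by 1.47 (SE 0.13, edgeR adjusted p = 4.02e-06).

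Postn (ENSMUSG00000027750.16, chr3:54361109-54391037, plus strand), by contrast, rose with TGFβ1 from a low level. It stood at 4.15 and 4.66 CPM in vehicle, 12.4 and 12.9 CPM with TGFβ1, and 5.40, 3.58 and 6.49 CPM with BMP2. The TGFβ1 libraries were both above all others, and BMP2 overlapped vehicle. The rise was 2.86-fold (log2 1.51, SE 0.25, edgeR adjusted p = 0.000459), and 1.66 on the log2 scale with the length offset. The BMP2 value was 0.25 (95% interval -0.31 to 0.82, adjusted p = 0.594), and BMP2 was below TGFβ1 by -1.26 (SE 0.21, adjusted p = 0.000368). Counts of Tgfbi were 35.5 and 28.3 times those of Postn in vehicle, 13.0 and 13.2 times with TGFβ1, and 76.3, 133 and 74.9 times with BMP2.

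Sparc (ENSMUSG00000018593.13, chr11:55394500-55423183, minus strand) rose with TGFβ1, to levels that differed between the 2 libraries. It stood at 9805 and 9222 CPM in vehicle, 40249 and 22498 CPM with TGFβ1, and 9010.2, 9493 and 9588 CPM with BMP2. Both TGFβ1 libraries were above the rest, and BMP2 and vehicle overlapped. The rise was 3.30-fold (log2 1.72, SE 0.23, edgeR adjusted p = 0.000101), or 1.58 on the log2 scale with the length offset. Leaving out TGFβ1 replicate 1 gave 1.25 and leaving out replicate 3 gave 2.09, past the threshold each time. With BMP2 the value was -0.02 (95% interval -0.47 to 0.42, adjusted p = 0.963). That interval rests on a spread taken from all 7 libraries, the differing TGFβ1 pair included. The difference between the ligands was -1.74 (SE 0.20, adjusted p = 2.74e-05).

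Fn1 (ENSMUSG00000026193.15, chr1:71585520-71653200, minus strand), with 17 annotated transcripts, was counted over all of them, so its splice forms, among them those with the extra domains, were not resolved. Its level was 9812 and 9657 CPM in vehicle, 15224 and 16713 CPM with TGFβ1, and 6938, 7319 and 7153 CPM with BMP2. The 3 groups did not overlap. TGFβ1 raised it 1.64-fold (log2 0.71, SE 0.12, edgeR adjusted p = 0.000691), or by 1.11 on the log2 scale with the length offset. Its principal transcript has 8315 nt, in the range of lengths whose median was -0.57. The fall with BMP2 was -0.45 (SE 0.11, adjusted p = 0.0272). That call was lost with the length offset (-0.31, adjusted p = 0.102) and when either vehicle library (-0.43 without replicate 1 and -0.46 without replicate 2), BMP2 replicate 2 (-0.47) or BMP2 replicate 3 (-0.45) was left out, with adjusted p up to 0.202. The ligands differed by -1.16 (SE 0.11, adjusted p = 7.39e-06). The ratio of Fn1 to Tnc counts was 191.6 and 213.6 in vehicle, 532 and 496 with TGFβ1, and 104.6, 113.6 and 103.5 with BMP2.

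**Figure D3:**
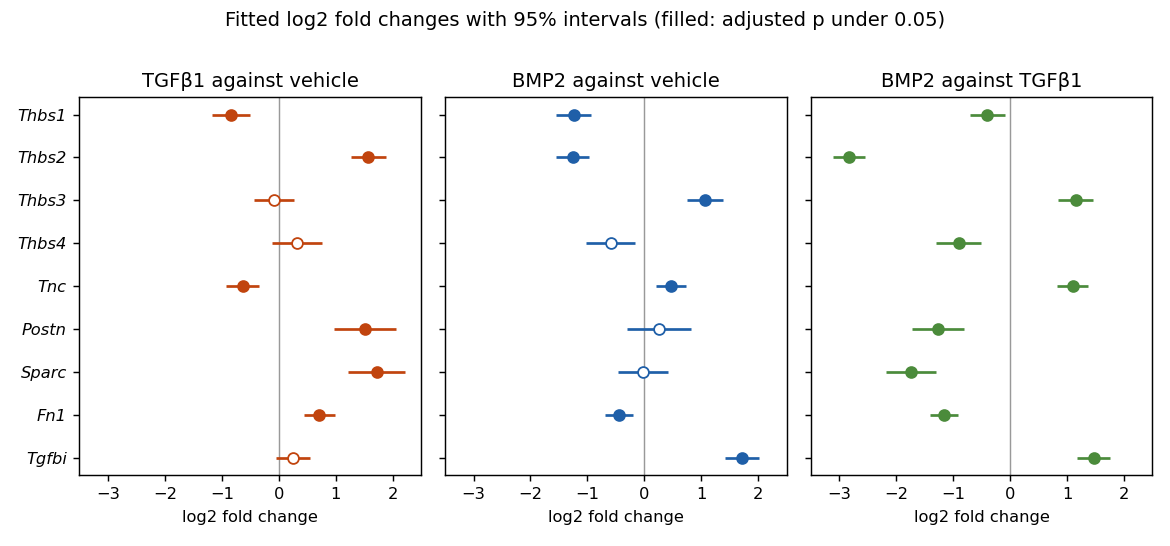
Fitted log2 fold change of each gene with its 95% interval in the 3 comparisons; filled points passed an adjusted p of 0.05 in edgeR. All 9 points are filled for BMP2 against TGFβ1, and 6 of 9 in each comparison with vehicle.

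**Figure D4:**
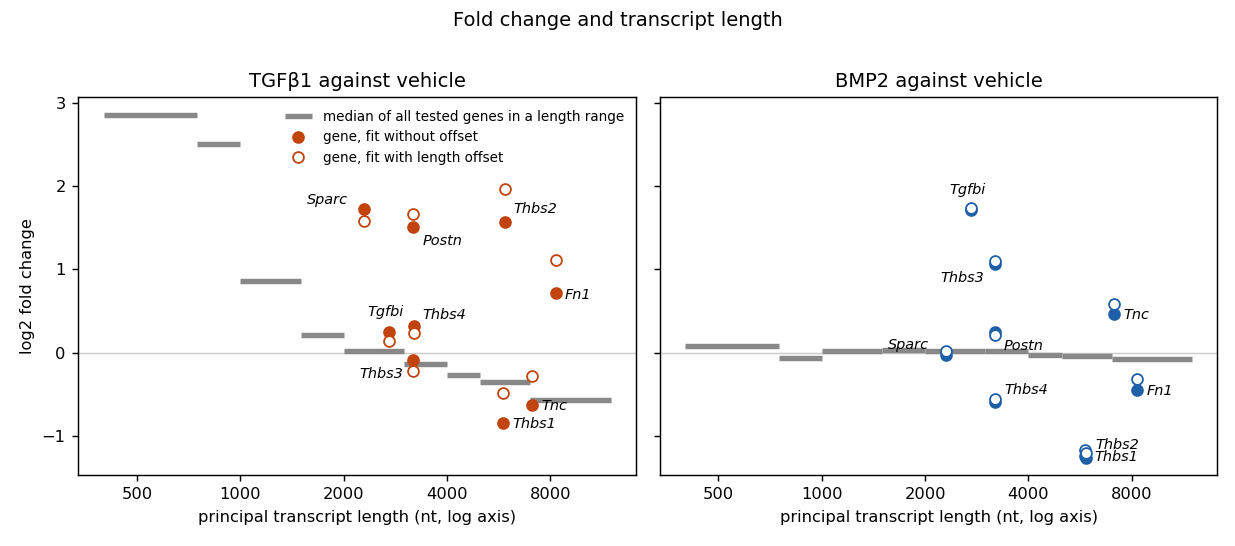
Log2 fold change against principal transcript length (nt, log axis) for TGFβ1 and BMP2 against vehicle; grey bars are the medians of all tested genes in 9 length ranges, filled points the fit without an offset and open points that with a length offset. With TGFβ1 the medians fall from 2.86 to -0.57 across lengths, and the long transcripts Fn1, Thbs2, Thbs1 and Tnc move up with the offset; with BMP2 the medians stay near 0.

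The members' patterns were set against each other by the root mean squared distance of centred log2 CPM over the 7 libraries, in log2 units and without a test, over points that share libraries and depth. The closest pairs were Thbs4 and Fn1 (0.216), Thbs3 and Tgfbi (0.316) and Thbs3 and Tnc (0.318), and the farthest were Thbs2 and Tgfbi (1.87). The CPM used carry no length offset, so the distances include the trend with transcript length seen with TGFβ1. With the offset the TGFβ1 log2 fold changes of Thbs4 and Fn1 were 0.24 and 1.11, against 0.31 and 0.71 without it. Distances under the offset were not computed. The trimeric pair Thbs1 and Thbs2 lay 1.10 apart, the pentameric pair Thbs3 and Thbs4 0.945, and Postn and Tgfbi 1.20, while the member nearest to Thbs1 was Thbs4 (0.481). Among 9748 genes that averaged log2 CPM 2 or more, those nearest to each member were Amot (0.0923), Antxr1 and Aes for Thbs1, and Irf2bpl (0.136), Col8a1 and Pxdn for Thbs2. For Thbs3 they were Ctnnbip1 (0.109), Ptprm and Serpinf1, and for Thbs4 Ccdc102a (0.102), Plekhf1 and Pink1. Foxk1 (0.0484), Pank3 and Gspt1 were nearest to Tnc, and Ncapd3 (0.114), Celf4 and Cenpp to Postn. Hsp90ab1 (0.0479), H3f3b and Ccdc124 were nearest to Sparc, and Mxd4 (0.0625), Rftn2 and Pde10a to Fn1. The gene nearest to Tgfbi was Tnn (0.126), which encodes tenascin N, followed by Ugp2 and Cav1.

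Of 13 other genes of the same families 8 were tested. With TGFβ1, 4 rose and 1 fell, with a median of 0.75, in a comparison that called 56.2% of all tested genes. The length offset gave 5 and 2, where 49.2% of all genes were called. With BMP2 1 rose and 2 fell, with a median of -0.29, where 11.5% of all genes were called. Smoc1, a SPARC-related protein that binds BMPs, averaged 13.8 CPM ± 0.0125 (SD, n = 2) in vehicle, 53.6 CPM ± 4.11 (n = 2) with TGFβ1 and 6.44 CPM ± 0.618 (n = 3) with BMP2 (log2 1.96 and -1.10, edgeR adjusted p = 1.01e-06 and 0.000999). Smoc2 (log2 1.00) and Fstl1 (1.13) rose with TGFβ1, and Spock2, at 4.07 CPM ± 2.37 in vehicle, fell with both ligands (-1.49 and -1.51). With the length offset the TGFβ1 values were 1.92 for Smoc1, 0.93 for Smoc2, 1.32 for Fstl1 and -1.36 for Spock2, and all 4 passed, while Spock2 missed the threshold with BMP2 (-1.40, adjusted p = 0.0504). Spock2 no longer passed without vehicle replicate 1 (-0.79 and -0.76), without TGFβ1 replicate 3 (-1.24 with TGFβ1), or without BMP2 replicate 2 or 3 (-1.53 and -1.27 with BMP2). Without vehicle replicate 1 the TGFβ1 count of this list was 3. Tnn averaged 4.77 CPM ± 1.00 in vehicle and 16.5 CPM ± 2.03 with BMP2 (log2 1.79, edgeR adjusted p = 0.00031). Sparcl1 stood at -0.63 with TGFβ1 and -0.54 with BMP2 and passed in neither. Comp averaged 1681 CPM ± 124 in vehicle, 1246 CPM ± 134 with TGFβ1 and 1754 CPM ± 460 with BMP2, and passed in neither. With the length offset Comp was called lower with TGFβ1 (-0.67, edgeR adjusted p = 0.00807).

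The receptors of these proteins, 16 of 18 tested, split evenly with TGFβ1: 6 rose and 6 fell, or 7 and 3 with the length offset. With BMP2 1 rose and 3 fell. Medians were 0.07 and -0.18. Of all tested genes, 56.2% were called with TGFβ1, or 49.2% with the length offset, and 11.5% with BMP2. Itgb3, the β subunit of the integrin that binds fibronectin and periostin, stood at 1.34 and 0.837 CPM in vehicle, 6.99 and 7.41 CPM with TGFβ1 and 0.257, 0.398 and 0.282 CPM with BMP2, where its call (log2 -1.79, edgeR adjusted p = 0.0373) was lost whichever of the 7 libraries was left out (-2.10 to -1.43). Cd36, which binds thrombospondins 1 and 2, had 2.01 and 2.87 CPM in vehicle and 0.0736 and 0 CPM with TGFβ1, and passed the test (edgeR adjusted p = 7.26e-05); it had 2.49, 3.45 and 2.73 CPM with BMP2. Sdc4, a fibronectin coreceptor (log2 0.85), and Itgb5 (1.02) rose with TGFβ1. Under that offset Itgb3 (2.99), Sdc4 (0.83), Itgb5 (0.88) and Cd36 (adjusted p = 0.00011) passed as well. With BMP2, Cacna2d1, a calcium channel subunit that binds thrombospondins, rose (0.59), and Itgb8 (-1.48) and Itga3 (-0.84) fell. The Itga3 and Cacna2d1 calls were lost without either vehicle library (Itga3 -0.95 and -0.70, Cacna2d1 0.54 and 0.65 without replicates 1 and 2) or BMP2 replicate 3 (Itga3 -0.63, Cacna2d1 0.55). The Itga3 call was also lost without BMP2 replicate 2 (-0.88), and that of Itgb8 without BMP2 replicate 2 (-1.43) or vehicle replicate 2 (-1.13). Without vehicle replicate 1 or 2 the BMP2 calls of this list numbered 1 and 0, and without BMP2 replicate 2 or 3 there was 1.

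Fibronectin's collagen and crosslinking partners, all 15 tested, rose in 10 cases and fell in 1 with TGFβ1 (median 0.92). With the length offset these counts were 11 and 1. With BMP2 3 rose and 1 fell (median 0.19). Among all tested genes 30.4% were called higher and 25.8% lower with TGFβ1, or 25.3% and 23.9% with the offset. The shares with BMP2 were 5.33% and 6.15%. Fbln2, a fibulin that binds fibronectin, averaged 7.94 CPM ± 0.446 in vehicle and 153 CPM ± 2.97 with TGFβ1 (log2 4.27, edgeR adjusted p = 1.07e-08). Lox, the collagen crosslinking oxidase, averaged 149 CPM ± 12.4 and 1361 CPM ± 150.1 (log2 3.19). Col3a1 (1.35) and the transglutaminase Tgm2 (1.04) also rose. These 4, under the length offset, stood at 4.32, 3.54, 1.58 and 0.96 and passed. With BMP2 the 3 that rose were the chains of collagen VI, the pericellular collagen of chondrocytes: Col6a1 by 0.92, Col6a2 by 1.22 and Col6a3 by 0.51. Fbn1, fibrillin 1, fell by 0.55 with BMP2. The BMP2 calls of Col6a3 and Fbn1 were lost without either vehicle library (Col6a3 0.56 and 0.48, Fbn1 -0.50 and -0.58) or BMP2 replicate 3 (0.49 and -0.55), which left 2 calls in the list each time. That of Fbn1 was also lost without BMP2 replicate 2 (-0.50).

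Marker sums of other cell types also moved with the groups. Those of fibroblasts and synovium (7 genes) were 3460 to 3480 CPM in vehicle, 4290 to 4550 with TGFβ1 and 2330 to 2750 with BMP2, and those of tendon (3 genes) 14.7 to 15.7, 48.5 to 52.8 and 7.81 to 9.68 CPM. The tendon sum moved with Scx, which rose with TGFβ1 from 7.89 and 7.66 to 44.1 and 47.1 CPM (log2 2.55, or 0.98 with the length offset). Mkx stood at -0.62 and did not pass, and Tnmd was at most 0.687 CPM in these 4 libraries. The first sum includes collagens I and III, which chondrocytes can express. Of its 5 tested genes, only Dcn was called with BMP2, where it fell from 1553 to 609 CPM. With TGFβ1, Col1a1 (log2 1.15) and Col3a1 (1.35) rose and the other 3 did not pass. Sums for pericytes and smooth muscle (4 genes) were 212 to 218, 379 to 384 and 308 to 359 CPM, and those of osteoblasts (4 genes) 282 to 289, 190 to 230 and 383 to 414 CPM. The former were mostly Cspg4 (means of 191, 322 and 309 CPM). Acta2 rose with TGFβ1 (24.1 to 59.2 CPM) and did not pass with BMP2 (21.7 CPM). Alpl (56.4 to 206 CPM) and Sp7 (28.4 to 70.2 CPM) rose with BMP2, while Ibsp fell (174 to 80.1 CPM) and Bglap did not pass. Alpl and Sp7 fell with TGFβ1. The part of these cell types in the members' changes was not tested. The platelet sum, of interest because platelets carry thrombospondin 1, was 2.14 to 2.15, 10.8 to 11.5 and 1.03 to 1.69 CPM, with Ppbp at 0 in every library. Both tested platelet markers rose with TGFβ1, Pf4 from 1.60 and 1.20 to 6.47 and 7.79 CPM (log2 2.35) and Itga2b from 0.535 and 0.718 to 4.12 and 3.67 CPM (edgeR adjusted p = 0.000419). Under the length offset Pf4 turned to -0.46 and did not pass, and Itga2b stood at 2.49 and passed. Leukocyte and endothelial sums were at most 9.2 and 1.72 CPM, with Cd3e and Cdh5 at 0 throughout. Cd68 rose with TGFβ1 from 2.01 and 2.27 to 8.24 and 4.58 CPM (log2 1.58, edgeR adjusted p = 0.00243), and its value with the length offset, 0.52, did not pass. Adgre1, the other tested leukocyte marker, fell with TGFβ1 from 1.74 and 1.20 to 0.589 and 0.305 CPM (log2 -1.67, edgeR adjusted p = 0.0265). With the length offset Adgre1 stood at -1.55 and passed. Pecam1 was at 0 in both vehicle libraries, at 0.294 and 0.458 CPM with TGFβ1 and at 1.12 to 1.59 CPM with BMP2 (edgeR adjusted p = 0.0183 and 0.00422).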

How the data were processed

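The authors deposited raw counts, 1 per gene name and library, beside a gene length. Per the submitters' processing notes the tools include STAR 2.4.2a, cutadapt, featureCounts of Subread, and DESeq2, on mm10, in no stated order or role. Not given in the sources used here are the annotation, the strand setting and what was done with multi-mapped reads. The test was run in R 4.3.3 with edgeR 4.0.16: filterByExpr kept 13367 genes, TMM scaled the libraries, and a single quasi-likelihood model with 1 coefficient per group used all 7 libraries (4 residual degrees of freedom; common biological coefficient of variation 0.133). Each contrast was 2-sided, and p-values were adjusted by Benjamini-Hochberg across every tested gene. The procedure was tested on simulated data. Positions, lengths and GC content came from GENCODE M21 for mm10, by names as given (45707), with a changed hyphen (2401) or by synonym (193), and 98.96% of tested genes had values.

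Alternatives were DESeq2 1.42.0, its size factors within edgeR, an unfiltered table, a fit of the compared libraries alone, a replicate block, 2 length offsets, transcripts of at least 2000 nt alone, and the loss of each library in turn; a group left with 1 library was assumed to vary like the others. The members and lists were chosen with earlier results of these data known. The genes named are the 9 members, up to 4 genes of each list with the smallest p against vehicle for each ligand, the ligand targets, of which 1 is not reported here, and the 3 genes nearest to each member. Single cell type markers, and Ctsk among the alternatives, are named with their values in view.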

Additional observations from a re-analysis of the deposited data

How the results depend on the processing

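Each of the 27 member results (9 genes, 3 comparisons) was recomputed under 15 alternatives. Of 405 values, 384 kept their direction and side of the threshold, 18 lost the call, 3 gained it and 0 reversed. The counts of members called were 6 throughout the leave-one-out fits for TGFβ1 against vehicle, 4 to 6 for BMP2 against vehicle and 8 to 9 for BMP2 against TGFβ1. The calls lost beyond those given above came with the replicate block (Tnc 0.41 and Fn1 -0.47 with BMP2, Thbs1 -0.41 between the ligands), with only the compared libraries (Thbs1 -0.36 between the ligands) and with an offset for the deposited length (Fn1 -0.37 with BMP2). Deviations of same-numbered libraries from their group means correlated at -0.139 to -0.000945. In a group of 2 libraries these deviations mirror each other, so the values cannot decide whether the numbers pair the libraries. The replicate block lowered the BMP2 calls over all genes to 771 from 1535. Over all genes, calls ranged from 6094 to 7894 for TGFβ1 (7517 in all libraries), from 557 to 1698 for BMP2 (557 without vehicle replicate 2, 671 without vehicle replicate 1, 981 without BMP2 replicate 3) and from 6888 to 8331 for BMP2 against TGFβ1 (8206) when a library was left out. Among transcripts of at least 2000 nt there were 4759 calls for TGFβ1 and 5375 for BMP2 against TGFβ1, with fewer genes tested. Of 4155 values of the other named genes, 3864 kept their call, 192 lost it, 89 gained it and 10 reversed. In TGFβ1 against vehicle these were Cacna2d1 (0.21), Id1 (-1.22) and Pank3 (0.026) with the length offset and Ctsk (-0.43) with the deposited length offset. Between BMP2 and TGFβ1 they were Aes (0.34), Cenpp (0.016) and Id3 (0.93) with the length offset, Ctsk (0.84) with the deposited length offset, and, with a TGFβ1 library left out, Id3 (-0.70 to 0.70) and Id1 (-0.61 to 1.24). The cause was not tested. Depth limits Itgb3, Cd36 and Postn, which have few counts.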

Other observations

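The proteases that cut these proteins, 12 of 15 tested, rose in 5 cases and fell in 4 with TGFβ1 (median -0.07). With the length offset these counts were 4 and 2, and with BMP2 they were 0 and 6 (median -0.59). Over all tested genes, 56.2% were called with TGFβ1, 49.2% with TGFβ1 under the offset, and 11.5% with BMP2 (6.15% lower). Mmp13, the main collagenase of cartilage, averaged 329 CPM ± 11.2 (SD, n = 2) in vehicle, 272 CPM ± 37.7 (n = 2) with TGFβ1 and 89.0 CPM ± 8.77 (n = 3) with BMP2 (log2 -1.89, edgeR adjusted p = 2.79e-05). Htra1, a secreted serine protease that cleaves fibronectin, rose with TGFβ1 (1.89) and fell with BMP2 (-0.69). The membrane metalloproteinase Mmp14 (1.35 and -0.60) and the gelatinase Mmp2 (0.86 and -0.59) also rose with TGFβ1 and fell with BMP2. Adamts1, which cleaves thrombospondins, fell with TGFβ1 (-1.62, from 30.2 to 9.82 CPM). With the length offset the TGFβ1 values were 1.59 for Htra1, 1.17 for Mmp14, 0.72 for Mmp2 and -1.34 for Adamts1, and all 4 passed. Without vehicle replicate 1 or 2 fewer genes of this list were called with BMP2. Calls of Mmp2 (-0.63 and -0.54), Mmp14 (-0.55 without replicate 1) and Htra1 (-0.66 without replicate 2) were among those lost. Mmp2 was also lost without BMP2 replicate 3 (-0.53), and without vehicle replicate 2 the TGFβ1 count of the list was 5.

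Genes of TGFβ storage and activation, 12 of 14 tested, rose in 7 cases and fell in 4 with TGFβ1 (median 0.73). With the length offset these counts were 7 and 3, and with BMP2 they were 2 and 6 (median -0.35). The background was 56.2% of all tested genes called with TGFβ1, 49.2% under the offset, and 11.5% with BMP2 (6.15% lower). Ltbp2, a latent TGFβ binding protein of microfibrils, averaged 8.70 CPM ± 0.386 in vehicle and 173 CPM ± 17.9 with TGFβ1 (log2 4.31, edgeR adjusted p = 1.22e-08). Ltbp1, which tethers latent TGFβ to fibronectin, averaged 38.0 CPM ± 1.74 in vehicle, 201 CPM ± 11.8 with TGFβ1 and 20.0 CPM ± 5.01 with BMP2 (edgeR adjusted p = 3.34e-06 and 0.0089). Ltbp3 rose with TGFβ1 (1.00). The ligand gene Tgfb2 fell with both treatments, from 146.5 CPM ± 0.465 in vehicle to 57.1 CPM ± 0.67 with TGFβ1 and 69.8 CPM ± 10.1 with BMP2 (log2 -1.36 and -1.07). With the length offset Ltbp2 (4.51), Ltbp1 (2.70), Ltbp3 (1.15) and Tgfb2 (adjusted p = 9.27e-05) passed with TGFβ1 too. Itgb8, whose integrin activates latent TGFβ, and Fbn1 are in this list too. Without vehicle replicate 1 or 2, 2 and 1 of its genes passed with BMP2, and Ltbp1 did not (-0.88 and -0.98). Without BMP2 replicate 2 or 3, 4 and 3 of them passed.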
